A study of Triticum aestivum with 24 samples.

Results

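The levels of 5 redox enzyme transcripts were followed in wheat leaves through a heat stress and the days after it. They were 2 transcripts annotated as copper-zinc superoxide dismutase (TraesCS2A01G399000.1 and TraesCS2B01G417000.1), 2 annotated as members of the glutaredoxin family (TraesCS3A01G158800.1 and TraesCS5B01G048900.1) and 1 annotated as peroxidase (TraesCS6B01G063800.1). These 5 were taken by identifier from a table of 137056 transcripts, and the chromosome is read from each identifier. Below they are called the 2A and 2B superoxide dismutase, the 3A and 5B glutaredoxin and the 6B peroxidase. At least 4 of them were chosen by their measured differences between heat and control leaves at the first sampling times, and for the 3A glutaredoxin the choosing values are not known, so those responses are given as a description, with no p, and calls at those times only say on which side of the threshold a value lay. All 5 passed the filter on low counts that left 54517 transcripts for testing, and the table held 0 other isoforms of their genes.

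The plants were hexaploid bread wheat of the cultivar Chinese Spring, all grown from seeds of 1 selfed plant, so every group shares 1 genotype. Control plants stayed at 18 °C in 16 h of light and 16 °C in 8 h of darkness. Heat-stressed plants were kept at 37 °C for 5 days at the boot stage, with ample watering. Leaves were sampled at the end of the stress (0 days after treatment, DAT) and again at 1 and 4 DAT. This gave control and heat groups at 3 times, 6 groups with 4 libraries each. Each library stands for a pool of 18 plants, as the study describes for its RNA samples. The study sampled the same plants at all 3 times. A replicate number within a treatment is therefore taken here to follow 1 pool of plants, which is inferred for these libraries. Only 1 cultivar and leaf tissue were studied, so the values describe whole leaves of that cultivar.

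Superoxide dismutases turn superoxide into hydrogen peroxide and oxygen. The copper-zinc enzymes carry both metals in the active site and in plants are found in the cytosol, chloroplasts and peroxisomes. In Arabidopsis, transcripts of such enzymes are known targets of the microRNA miR398, which is tied to copper supply and to oxidative stress. Glutaredoxins are small proteins that use glutathione to reduce disulfides, and some of them carry iron-sulfur clusters. Peroxidases oxidise other molecules with hydrogen peroxide. Many plant peroxidases are secreted and act on phenolic compounds in the cell wall, though the annotation here does not say to which class the 6B transcript belongs.

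All 5 transcripts were listed by the study as microRNA targets identified by degradome sequencing. The sites are shown because such a listing is what the 5 have in common, though the sites differ. Other listed pairings of these transcripts, if any, are not shown. Each target site is printed 5′ to 3′ with the mature microRNA, also 5′ to 3′, on the line after it. Capitals mark bases that form Watson-Crick pairs with the other strand of the duplex when the 2 sequences are laid against each other without gaps. T stands for U.
2A superoxide dismutase site: cttGGTGACCTGgGAACACtA
2B superoxide dismutase site: cttGGTGACCTGgGAACACtA
miR398-1.2-3p: TtGTGTTCtCAGGTCACCcct
3A glutaredoxin site: gATGGaGTAATCTCtTgTaAA
miR9772-2.1-5p: TTgAgAtGAGATTACcCCATa
5B glutaredoxin site: TTTCaaCGACGAGTAATTTGGAAC
miR1135-272-5p: GTTCCAAATTACTCGTCGcaGAAA
6B peroxidase site: CTCCCTCcaTAAAgaAATATA
miR1121-51-3p: TATATTagTTTAcaGAGGGAG

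The sites of the 2A and 2B superoxide dismutases were identical over 21 bases, with 16 Watson-Crick pairs to miR398-1.2-3p, 1 G:U pair and 4 unpaired positions. The glutaredoxins did not share a site or a microRNA. The 3A glutaredoxin had 16 pairs of 21 with miR9772-2.1-5p. The 5B glutaredoxin had 22 pairs of 24 with miR1135-272-5p, the longest duplex of the 4. The 6B peroxidase had 17 pairs of 21 with miR1121-51-3p. The microRNAs themselves and cleavage at these sites were not analysed here.

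Depth was between 5403461 and 16112270 estimated counts per library. Levels are CPM, an estimated count rescaled to a common library size, on library sizes corrected by the trimmed mean of M-values (TMM), a scaling that assumes most transcripts keep their level. The TMM factors were 1.23 to 1.54 in the heat libraries at 0 DAT and 0.661 to 1.26 in all others. Scaled by total counts alone, the median of all transcripts lay 0.51 higher (log2) in the heat group at 0 DAT than with TMM, 0.06 higher at 1 DAT and 0.09 lower at 4 DAT (a shift of -0.09). The leaf label was checked on 2 photosynthesis transcripts, both present in every library. The Rubisco small chain TraesCS5B01G162800.1 averaged 5000 ± 1510 CPM in leaves of control plants at 0 DAT and 1850 ± 635 CPM in those of heated plants (SD, n = 4), and a PsbP-family transcript of photosystem II, TraesCS5A01G109600.1, averaged 9.84 ± 0.924 and 14.8 ± 2.87 CPM. No markers of other leaf cell types could be taken from the sources used here. In whole leaves, fewer cells of a type and less RNA per cell cannot be told apart.

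After heat, the 2B superoxide dismutase was higher and the 3A glutaredoxin and the 6B peroxidase were lower, the 5B glutaredoxin was lower at 1 DAT, and at 4 DAT no member passed the test. At 0 DAT, 1 member was called higher (2B superoxide dismutase) and 2 lower (3A glutaredoxin and 6B peroxidase) by edgeR's quasi-likelihood test at an adjusted p under 0.05, where 24.3% of all tested transcripts were called (11% higher and 13.3% lower). At 1 DAT, 3 were called lower (both glutaredoxins and the peroxidase), against 13.5% of all tested transcripts called (7.32% higher and 6.18% lower). At 4 DAT, 0 of 5 were called by edgeR or by DESeq2 and 0 had an unadjusted edgeR p under 0.05, where 0.18% of all tested transcripts were called by edgeR. Control and heat libraries did not overlap for 4 of 5 members at 0 DAT (32.4% of all tested transcripts), 3 of 5 at 1 DAT (16.4%) and 0 of 5 at 4 DAT (4.97%). The 0 and 1 DAT values describe members that were chosen with those contrasts known, and nothing is read from their number. The median log2 fold change over the members was -0.04, -0.64 and -0.32 at the 3 times in turn, beside 0.03, -0.04 and 0 over all tested transcripts.

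**Figure D1:**
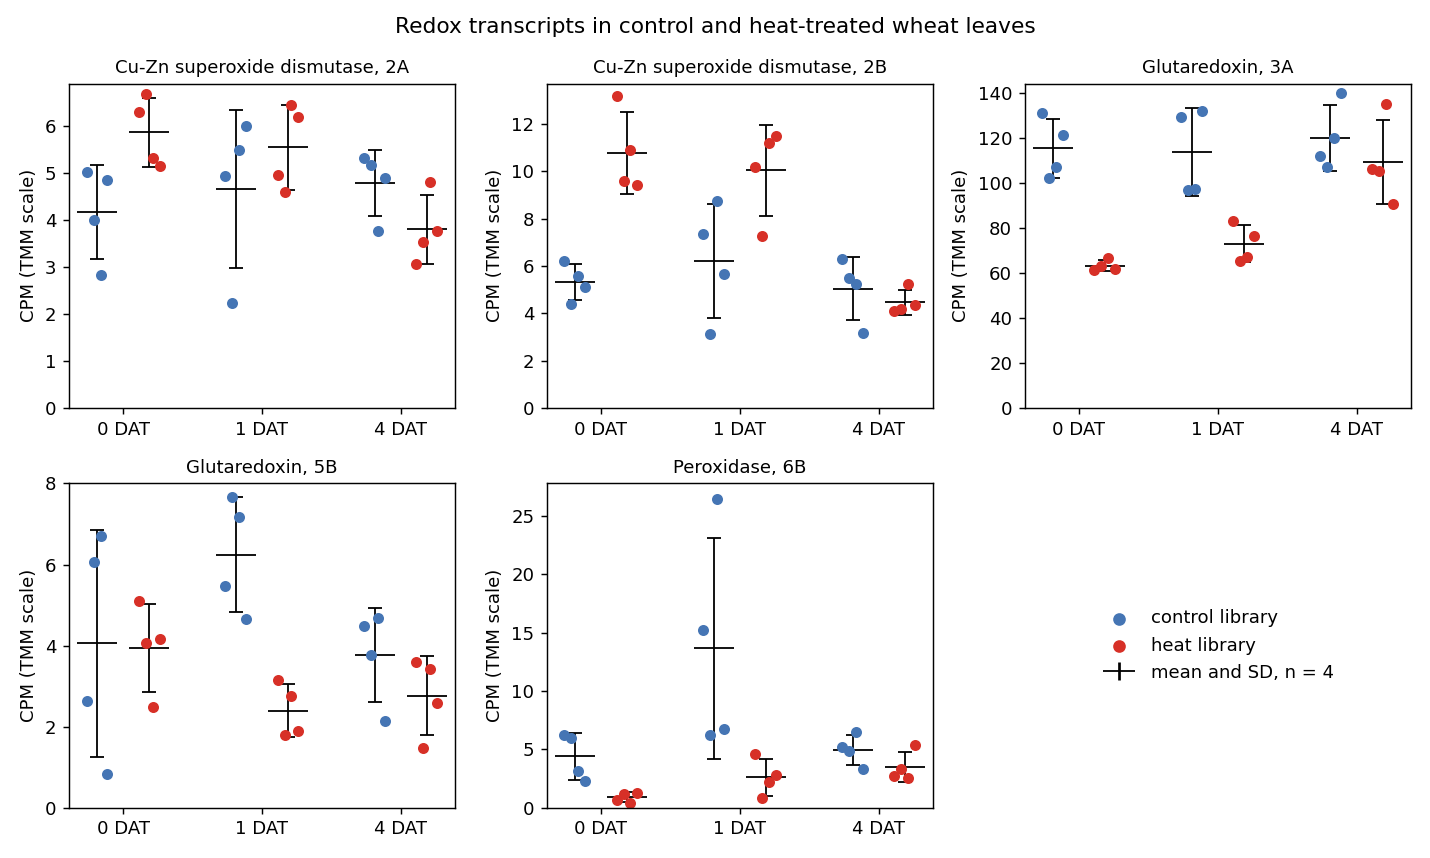
Level of each of the 5 transcripts in every library (y axis, CPM on the TMM scale, starting at 0) for control (blue) and heat (red) leaves at 0, 1 and 4 DAT, with the mean and SD of 4 libraries in black. The red points of the 3A glutaredoxin sit between 61.3 and 82.9 CPM at 0 and 1 DAT, below every blue point, and the peroxidase has its highest points, up to 26.5 CPM, in control leaves at 1 DAT.

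The 2B superoxide dismutase was the member that was higher after heat by the largest factor. In control leaves at 0 DAT it had 6.21, 4.38, 5.57 and 5.09 CPM in replicates 1 to 4, and in heat leaves 13.2, 9.59, 10.9 and 9.4 CPM. The heat libraries all lay above the control libraries, as was so, in that direction, for 16% of all tested transcripts. The means were 5.31 ± 0.773 and 10.8 ± 1.74 CPM (SD, n = 4), a log2 fold change of 1.02 ± 0.24 (SE), or 2.03-fold. At 1 DAT the control libraries had 7.33, 3.12, 8.75 and 5.64 CPM and the heat libraries 10.2, 7.28, 11.2 and 11.5 CPM. These ranges overlapped, and the heat library of replicate 2 lay below 2 control libraries. The log2 fold change there was 0.7 ± 0.24, or 1.62-fold, and was not called. It was 0.47 without control replicate 2, the lowest control library, and was called without control replicate 3, the highest (0.93), or without heat replicate 2, the lowest heat library (0.83).

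By 4 DAT the 2B transcript was back in the control range. Control libraries had 6.3, 5.48, 5.24 and 3.15 CPM and heat libraries 4.11, 4.16, 5.22 and 4.36 CPM, and the heat values all lay within the control range. The log2 fold change was -0.16 ± 0.26, with a 95% interval from -0.7 to 0.37 (adjusted p = 0.93, edgeR). Within heated plants the level at 4 DAT was 0.416 times that at 0 DAT (log2 -1.26 ± 0.25), and 0 of 4 pools were higher at 4 DAT. From 0 to 1 DAT the heated plants changed by -0.11 ± 0.24. In control plants the means stayed between 5.04 and 6.21 CPM over the 3 times. Ranked by mean, the groups ran from heat 0 DAT and heat 1 DAT through control 1, 0 and 4 DAT to heat 4 DAT, and the ranges of every neighbouring pair in that order overlapped.

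The 2A superoxide dismutase also had higher values in heat leaves at 0 DAT, with a smaller fold than the 2B transcript. At 0 DAT its control libraries had 5.01, 4, 2.82 and 4.85 CPM and its heat libraries 6.29, 6.67, 5.32 and 5.15 CPM. The groups did not overlap, though the highest control and the lowest heat library were close. The means were 4.17 ± 1 and 5.86 ± 0.736 CPM (SD, n = 4), a log2 fold change of 0.49 ± 0.24 that was not called with TMM. Scaled by total counts it was 0.98 and was called, a shift close to the 0.51 that this scaling gave to the median of all transcripts. At 1 DAT control libraries ranged from 2.22 to 6 CPM and heat libraries from 4.58 to 6.44 CPM, with a log2 fold change of 0.25 ± 0.24. At 4 DAT control libraries ranged from 3.76 to 5.32 and heat libraries from 3.06 to 4.81 CPM, with a log2 fold change of -0.32 ± 0.25 (95% interval -0.84 to 0.2, adjusted p = 0.77, edgeR). Heat 0 DAT was again the highest group and heat 4 DAT, at 3.79 ± 0.74 CPM, the lowest, and neighbouring groups in the ranking overlapped throughout. Within heated plants 0 of 4 pools were higher at 4 than at 0 DAT (log2 -0.62 ± 0.25).

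The 2 superoxide dismutase transcripts carry the same annotation and the same microRNA site, and the authors' tool divides reads that fit both. Their sum does not depend on how reads are divided between these 2 transcripts. Whether reads were also shared with other transcripts was not checked. The summed level was 9.48 ± 1.37 CPM in control and 16.6 ± 2.06 CPM in heat leaves at 0 DAT, with control libraries from 8.38 to 11.2 and heat libraries from 14.6 to 19.5 CPM. At 1 DAT it was 10.9 ± 3.85 and 15.6 ± 2.76 CPM, and at 4 DAT 9.82 ± 1.62 and 8.26 ± 1.25 CPM. The sum was thus higher in heat leaves at 0 DAT in all libraries, and its ranges overlapped at 1 and 4 DAT.

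The share of the 2B transcript in that sum is free of library scaling. It was 56.3% ± 6.94 in control and 64.6% ± 4.01 in heat leaves at 0 DAT (SD, n = 4). It was 57.1% ± 5.85 and 64.3% ± 2.51 at 1 DAT, and 50.8% ± 8.18 and 54.3% ± 2.23 at 4 DAT. The mean share was higher in heat leaves at each time, but control and heat ranges overlapped at all 3 times, narrowly at 1 DAT, where the highest control library had 61.5% and the lowest heat library 61.3%. The share does not rank the 2 transcripts, because their lengths were not known here.

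**Figure D2:**
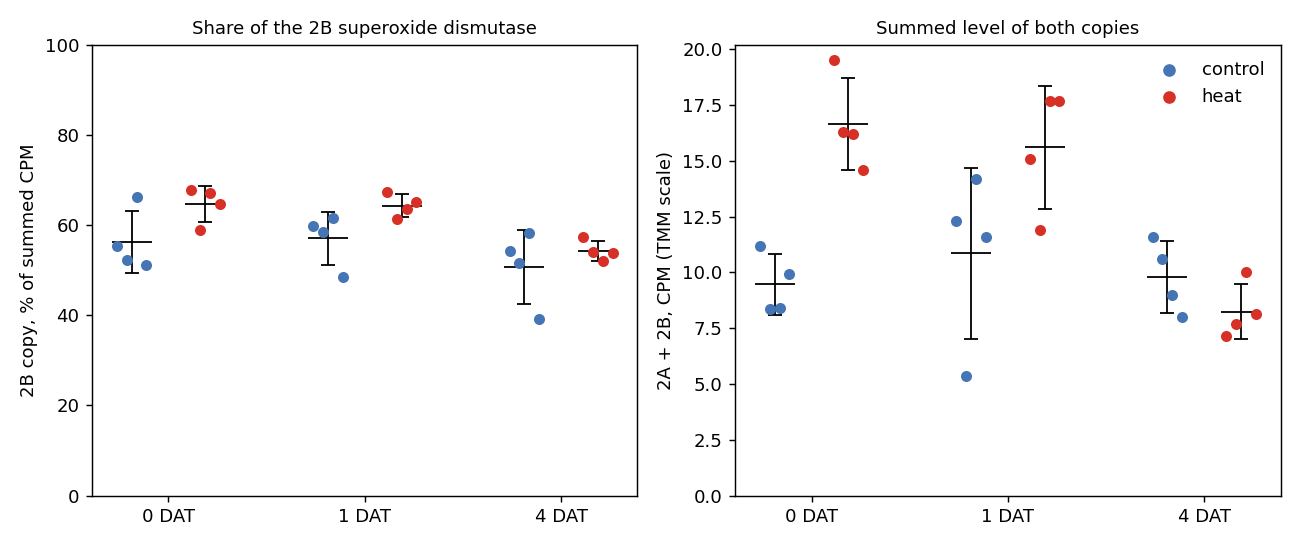
The left panel plots the 2B share of the summed superoxide dismutase level (y axis, percent, 0 to 100) and the right panel the sum itself (y axis, CPM on the TMM scale, starting at 0) for every control (blue) and heat (red) library at 0, 1 and 4 DAT, with mean and SD of 4 libraries in black. The shares overlap at each time, whereas the sums at 0 DAT sit at 8.38 to 11.2 CPM in control and 14.6 to 19.5 CPM in heat leaves.

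The 3A glutaredoxin was lower in heat leaves at 0 and 1 DAT and was the member measured with the least spread. At 0 DAT control libraries had 131, 102, 107 and 121 CPM and heat libraries 61.3, 62.9, 66.7 and 61.7 CPM. All heat libraries lay below all control libraries, as was so for 16.4% of all tested transcripts in that direction. The means were 115 ± 13.4 and 63.2 ± 2.48 CPM (SD, n = 4), a log2 fold change of -0.87 ± 0.14, or 0.548 times the control level. At 1 DAT control libraries had 129, 96.6, 97 and 132 CPM and heat libraries 82.9, 65.2, 67.2 and 76.4 CPM, again without overlap, as for 7.74% of all tested transcripts. The log2 fold change was -0.64 ± 0.14, or 0.641 times control.

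By 4 DAT the 3A glutaredoxin of heated plants overlapped that of control plants. Control libraries had 112, 107, 120 and 140 CPM and heat libraries 106, 105, 135 and 90.6 CPM, and the log2 fold change was -0.13 ± 0.14 (95% interval -0.42 to 0.16). No p is given at this time either, because it is not known on which values this transcript was chosen. Control plants had means of 114 to 120 CPM at the 3 times. Heated plants had 1.73 times as much at 4 as at 0 DAT (log2 0.79 ± 0.14) and 1.5 times as much at 4 as at 1 DAT (log2 0.58 ± 0.14), with 4 of 4 pools higher at 4 DAT in both. In the ranking by mean, the 3 control groups and heat 4 DAT (109 ± 18.8 CPM) stood above heat 1 DAT (72.9 ± 8.27) and heat 0 DAT (63.2 ± 2.48). A gap without overlap lay between heat 4 DAT and heat 1 DAT, and all other neighbours overlapped.

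The size of the 0 DAT difference depended on the scaling. With total counts the log2 fold change of the 3A glutaredoxin was -0.37 at 0 DAT and -0.61 at 1 DAT, and neither was called. The 0 DAT value moved by about the shift of 0.51 that this scaling gave to the median of all transcripts. The small difference between heated plants at 1 and 0 DAT was 0.21 ± 0.14 with TMM, with 4 of 4 pools higher, but -0.27 with total counts, so its direction is not fixed by these data. At 0 DAT the Rubisco small chain was also lower in heat leaves, while the PsbP-family transcript was higher, as given above. Their log2 fold changes at 1 DAT were -0.24 ± 0.44 and 0.76 ± 0.19. What part either has in this result was not tested.

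The 5B glutaredoxin had few reads, with 7 to 125 estimated counts per library, and followed another course. At 0 DAT control libraries had 2.63, 6.05, 6.7 and 0.828 CPM and heat libraries 5.1, 4.06, 2.48 and 4.16 CPM. The control libraries were so far apart that the heat libraries fell between them. The means were 4.05 ± 2.79 and 3.95 ± 1.09 CPM (SD, n = 4), and the log2 fold change of -0.04 ± 0.41 became 0.54 with total counts, so no direction is given. At 1 DAT control libraries had 5.47, 7.66, 7.18 and 4.65 CPM and heat libraries 3.14, 1.79, 2.76 and 1.89 CPM. The groups did not overlap and the log2 fold change was -1.38 ± 0.43, or 0.383 times control. This call ended under 9 of 16 alternatives, 6 of which left out 1 library (control replicate 1, 2 or 3, or heat replicate 2, 3 or 4), while the value stayed between -1.56 and -1.26 over all 16.

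At 4 DAT control libraries of the 5B glutaredoxin had 4.48, 3.76, 4.67 and 2.13 CPM and heat libraries 3.59, 1.46, 3.43 and 2.58 CPM. They overlapped, with a log2 fold change of -0.4 ± 0.44 (95% interval -1.31 to 0.51, adjusted p = 0.87, edgeR). In control plants 4 of 4 pools were higher at 1 than at 0 DAT (log2 0.61 ± 0.42) and 0 of 4 were higher at 4 than at 1 DAT (log2 -0.73 ± 0.42), and neither difference was called. In heated plants 1 of 4 pools was higher at 1 than at 0 DAT (log2 -0.74 ± 0.43). Control 1 DAT was the highest group and heat 1 DAT the lowest, and neighbouring groups in the ranking overlapped throughout.

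The 6B peroxidase was the member with the widest difference between treatments. At 0 DAT control libraries had 6.21, 5.96, 3.15 and 2.25 CPM and heat libraries 0.694, 1.21, 0.367 and 1.29 CPM. Every heat library lay below every control library. The means were 4.39 ± 1.99 and 0.888 ± 0.436 CPM (SD, n = 4), a log2 fold change of -2.31 ± 0.53, or 0.202 times control. The heat values rest on 17, 19, 4 and 13 estimated counts. At 1 DAT control libraries had 15.2, 6.25, 26.5 and 6.71 CPM and heat libraries 4.57, 0.797, 2.21 and 2.83 CPM, again without overlap. The log2 fold change was -2.37 ± 0.5, or 0.194 times control, and was -1.81 without control replicate 3, the highest library.

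The level of the 6B peroxidase in control leaves was highest at 1 DAT, though no difference between times in control leaves was called. The mean of the control group was 13.7 ± 9.5 CPM at 1 DAT, 3.07 times that at 0 DAT (log2 1.62 ± 0.48), and all 4 pools were higher at 1 DAT. From 1 to 4 DAT it was lower again in all 4 pools (log2 -1.45 ± 0.48). Heated plants were higher at 1 than at 0 DAT in 3 of 4 pools (log2 1.56 ± 0.54) and higher at 4 than at 0 DAT in 4 of 4 (log2 1.93 ± 0.55, 3.82-fold). The difference between the heat effects at 1 and 0 DAT was -0.06 ± 0.88 (log2), with a 95% interval from -1.88 to 1.76. That leaves its direction and size unknown. An SE taken as |log2 fold change| over √F is imprecise for values near 0, so this SE and interval are rough. For the peroxidase's heat effect at 4 DAT minus that at 0 DAT the SE was 0.73.

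At 4 DAT the control libraries of the 6B peroxidase had 5.18, 4.84, 6.49 and 3.35 CPM and the heat libraries 2.74, 3.33, 2.53 and 5.35 CPM. The heat libraries of replicates 1, 2 and 3 lay below all control libraries and that of replicate 4 lay among them. The log2 fold change was -0.54 ± 0.5 (95% interval -1.58 to 0.51, adjusted p = 0.83, edgeR). It was -0.81 without heat replicate 4. That library is among the 4 with over 1% of counts in 1 transcript, TraesCS1A01G000100.1, and without those 4 the value was -0.91. Over all 16 alternatives it ranged from -0.91 to -0.38, and none called it. Ranked by mean, control 1 DAT came first, then control 4 DAT, control 0 DAT, heat 4 DAT, heat 1 DAT and heat 0 DAT, and neighbours overlapped, control 1 and 4 DAT only by the lowest and highest libraries (6.25 and 6.49 CPM).

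**Figure D3:**
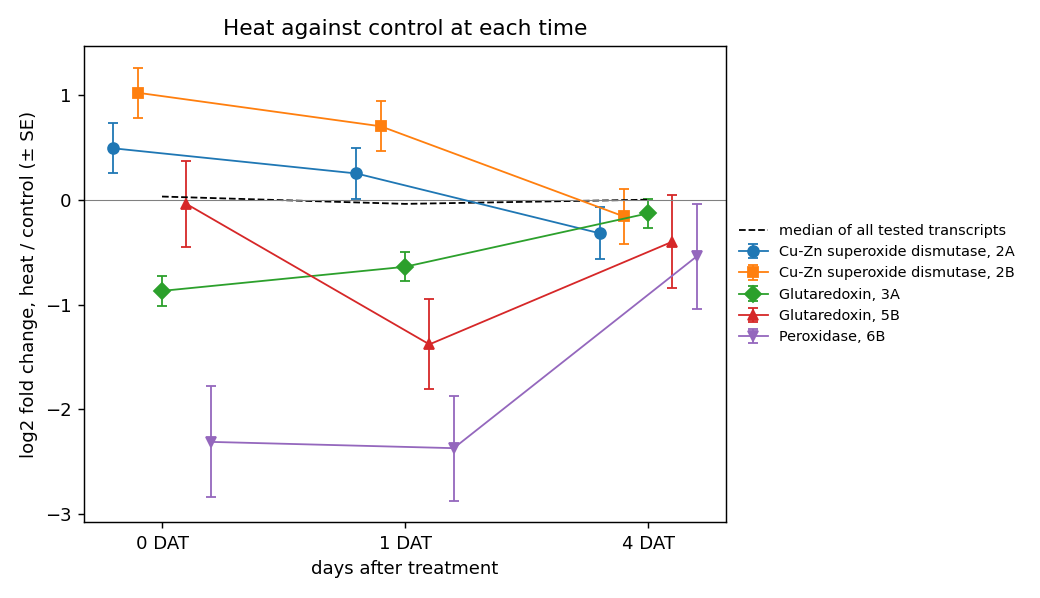
Log2 fold change of heat over control (y axis, with SE) for the 5 transcripts at 0, 1 and 4 DAT (x axis, drawn with equal spacing and points set apart sideways), with the median of all tested transcripts as a dashed line. The 2B superoxide dismutase goes from 1.02 to -0.16 and the 6B peroxidase from -2.31 over -2.37 to -0.54, while the 5B glutaredoxin is near 0 at 0 DAT and at -1.38 at 1 DAT.

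The heat effect at 4 DAT minus that at 0 DAT was -1.18 ± 0.35 (log2) for the 2B and -0.82 ± 0.35 for the 2A superoxide dismutase, 0.74 ± 0.2 for the 3A glutaredoxin, -0.36 ± 0.6 for the 5B glutaredoxin and 1.77 ± 0.73 for the 6B peroxidase. With total counts the values, in the same order, were -1.83, -1.38, 0.18, -1.06 and 1.11. From 0 to 1 DAT these differences were smaller than 1 SE for both superoxide dismutases (-0.32 ± 0.34 for 2B and -0.25 ± 0.34 for 2A) and the peroxidase, and 0.23 ± 0.2 for the 3A glutaredoxin, which was -0.24 with total counts. For the 5B glutaredoxin it was -1.35 ± 0.6. These differences share libraries with the contrasts known when the members were chosen and are given without a test, beside 10.2% of all tested transcripts called for 4 against 0 DAT.

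The spread between replicates differed widely among the members. The biological coefficient of variation, the relative spread between replicates beyond counting error, was 14.9% for the 3A glutaredoxin, where 26.7% was the trend at its level over all transcripts. It was 20.9% and 22.1% for the 2A and 2B superoxide dismutases, beside trends of 35.8% and 30.9%. It was 39.1% for the 5B glutaredoxin, at its trend of 39%, and 46.5% for the peroxidase, above its trend of 35.4%. The 3A glutaredoxin also had 365 to 1660 estimated counts per library, against 4 to 203 for the peroxidase. A log2 difference of a given size is thus measured most closely for the 3A glutaredoxin and least closely for the peroxidase.

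**Figure D4:**
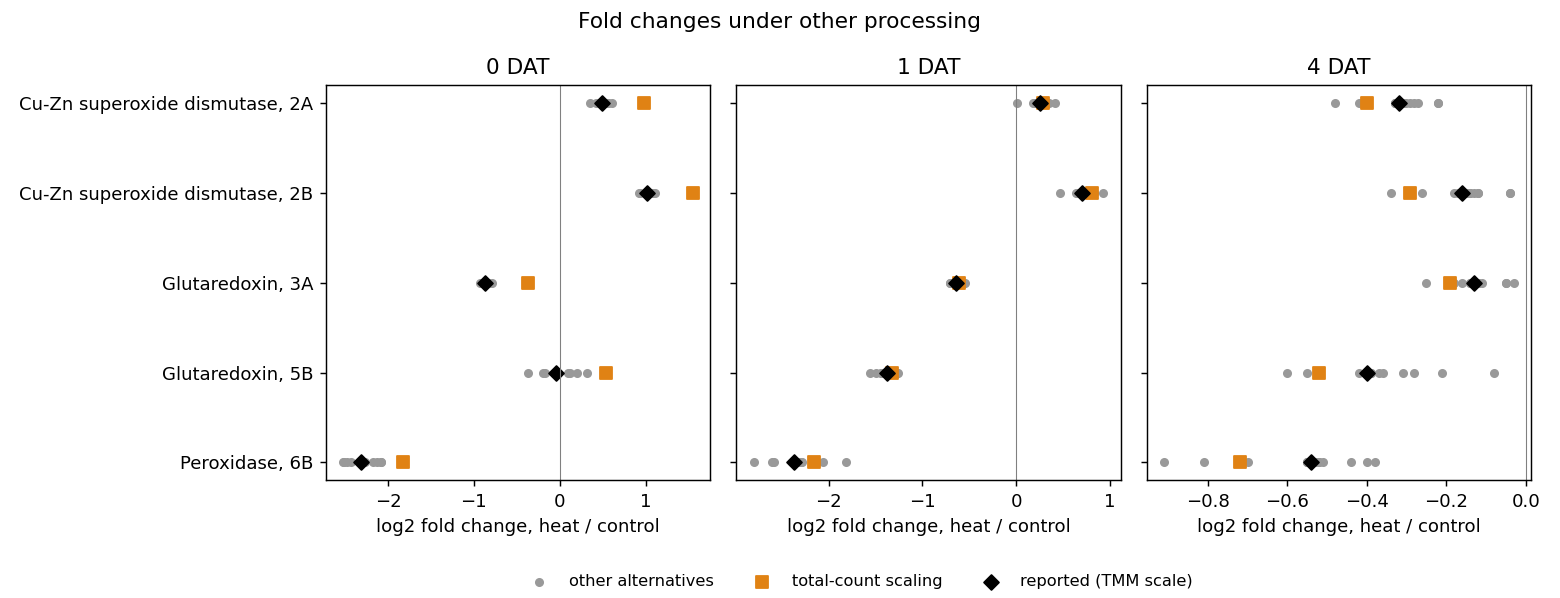
Log2 fold change of heat over control (x axis, a different range in each panel) for the 5 transcripts at 0, 1 and 4 DAT as reported (black diamonds), with total-count scaling (orange squares) and under 15 other settings (grey). At 0 DAT the orange squares sit to the right of the black diamonds for every transcript, and the 5B glutaredoxin is the only row with points on both sides of 0.

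Over the 24 libraries the 2A and 2B superoxide dismutases followed each other with a Pearson r of 0.72 on log2 CPM. The 3A glutaredoxin ran against the 2B superoxide dismutase (r = -0.7) and with the peroxidase (r = 0.64). The 5B glutaredoxin had r = 0.41 with the peroxidase and 0.03 with the 3A glutaredoxin, although both carry the glutaredoxin annotation. These values describe 24 points that share treatments, times and library scaling, and carry no test. The members were also chosen with heat differences at the first sampling times known, and those differences enter r.

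The transcripts most like each member were sought among the 370 tested transcripts that carry an annotation in the sources used here, which the study chose as microRNA targets. For the 2A superoxide dismutase they were its 2B counterpart, TraesCS4D01G163100.1, annotated as SUPPRESSOR OF GENE SILENCING 3 (r = 0.58), and TraesCS3D01G505800.1, a CRM-domain RNA-binding protein (r = 0.57). For the 2B superoxide dismutase they were TraesCS1B01G186500.1, a LanC-like protein (r = 0.74), TraesCS7A01G427300.1, a xyloglucan endotransglucosylase/hydrolase that acts on cell wall xyloglucan (r = 0.72), and the 2A transcript. For the 3A glutaredoxin they were TraesCS6B01G005300.1, an Enhancer of polycomb-like protein (r = 0.81), TraesCS2A01G166400.1, annotated as WEAK CHLOROPLAST MOVEMENT UNDER BLUE LIGHT 1 (r = 0.78), and TraesCS2B01G007400.3, a receptor kinase-related protein (r = 0.77). The same receptor kinase-related transcript was among those of the peroxidase (r = 0.77), beside TraesCS4A01G308600.1, a cytochrome P450 (r = 0.8), and TraesCS2D01G173700.1, another chloroplast movement transcript (r = 0.74). For the 5B glutaredoxin the likeness was weaker, with r = 0.52 for TraesCS6A01G021400.1, an mTERF-like protein, and r = 0.5 for TraesCS2B01G437400.1, an SHR5-receptor-like kinase, and for TraesCS2A01G166300.1, a calmodulin. Over all tested transcripts of other genes the highest r was 0.8, 0.89, 0.95, 0.82 and 0.87 for the 2A and 2B superoxide dismutase, the 3A and 5B glutaredoxin and the peroxidase.

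Other redox and copper transcripts were taken from the same source. The list held 16 transcripts by annotation text, and 9 passed the filter. It was drawn from targets that the study chose on the same experiment and was set with earlier results of these data known, so it is not independent evidence. At 0 DAT, 1 of 9 rose and 2 fell (edgeR, adjusted p under 0.05), beside 24.3% of all tested transcripts called, and 6 did not pass, with a median log2 fold change of -0.22 beside 0.03 over all transcripts. At 1 DAT, 1 rose, 1 fell (13.5% of all tested transcripts were called) and 7 did not pass, with a median of 0.28 beside -0.04. At 4 DAT, 0 of 9 passed by edgeR or DESeq2 (1 had an unadjusted edgeR p under 0.05), with a median of -0.14 beside 0.

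At 0 DAT the thioredoxin-like AAED1 transcript TraesCS4A01G105500.1 fell from 43.9 ± 6.34 CPM in control to 25.7 ± 1.71 CPM in heat leaves (SD, n = 4), a log2 fold change of -0.77 ± 0.14 (edgeR adjusted p = 0.00037). With total counts this was -0.25 and was not called. The glutathione S-transferase TraesCS3D01G133100.1, of a family that joins glutathione to reactive compounds, fell from 13.8 ± 3.68 to 6.55 ± 2.83 CPM (log2 -1.08 ± 0.35, edgeR adjusted p = 0.028), a call that ended under 7 of 16 alternatives, 6 of them without 1 library (control replicate 1, 2 or 3, or heat replicate 1, 2 or 4, with log2 values from -1.09 to -0.85) and the seventh total-count scaling (-0.56). The polyphenol oxidase TraesCS3B01G355900.1, a copper enzyme that oxidises phenols to quinones, rose from 1.51 ± 0.59 to 6.84 ± 2.37 CPM (log2 2.16 ± 0.52, edgeR adjusted p = 0.0042). It stayed called under all 16 alternatives.

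At 1 DAT 2 transcripts annotated as copper-transporting ATPases, pumps that move copper across membranes, went opposite ways. TraesCS6A01G158900.1 fell from 6.4 ± 0.631 to 3.36 ± 0.823 CPM (SD, n = 4), a log2 fold change of -0.94 ± 0.25 (edgeR adjusted p = 0.015). The call ended without heat replicate 1 (log2 -0.78) and with total counts (-0.88). TraesCS7A01G239700.1 rose from 11.2 ± 2.58 to 19.2 ± 2.52 CPM (log2 0.78 ± 0.16, edgeR adjusted p = 0.0021) and stayed called under all 16 alternatives. Of the 7 listed transcripts that did not pass the filter, 4 had no counts in any library, among them both peroxidases other than the 6B transcript. The remaining copper-zinc superoxide dismutase, TraesCS2A01G121200.2, had counts in 1 library, with an estimated count of 3.01.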

How the data were processed

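RNA-seq of leaf RNA (paired-end, mRNA-enriched) gave 24 libraries in 6 groups of 4. Per the labels, the authors trimmed reads with Trimmomatic and quantified them with kallisto (versions, build and annotation not given in the sources used here). They deposited 1 table of estimated counts per transcript, in which 38.8% of values were not whole, as kallisto divides reads that fit several transcripts. That division makes near-identical copies uncertain. No column was of another series, and pooling of RNA is stated for the small RNA libraries and inferred here for RNA-seq from the shared numbers.

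Estimated counts were rounded and fitted with edgeR 4.0.16 (limma 3.58.1, R 4.3.3) in 1 model of 6 group means over all 24 libraries, with TMM factors, filterByExpr (minimum count 10, minimum total 15), the two-sided quasi-likelihood test and Benjamini-Hochberg adjustment over 54517 transcripts. Calls are at adjusted p under 0.05. The SE was derived from the fold change and its F statistic, as |log2 fold change| over √F. Log2 CPM used a prior count of 2. Scripts were tested on simulated data.

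The members and lists were chosen with earlier results of these data known. Heat effects of the members at 0 and 1 DAT, and their changes between times, therefore carry no p. Adjusted p values of the other listed transcripts are printed but are not independent evidence. Named transcripts are all members, listed redox or copper transcripts called in at least 1 heat comparison, and the 3 annotated transcripts with the highest r to each member. The annotation texts and the site and microRNA sequences were taken from the study's target list as it was given here, shortened. The reference gene table held 0 of the 5 identifiers, so positions and proteins were not used here.

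Same-numbered libraries of a treatment are taken to come from the same plants. The printed changes between times and their SEs come from the model of group means, which has no term for the pool. The pool was a block only in an alternative fit. For heated plants at 4 against 0 DAT, that fit gave -1.27 for the 2B superoxide dismutase and 0.78 for the 3A glutaredoxin. The values without the block were -1.26 and 0.79. Deviations of same-numbered libraries from the group means correlated at -0.26 to 0.15 between times. For 0 and 1, 0 and 4, and 1 and 4 DAT, 1, 0 and 0 of 4 control libraries correlated best with their own number. In heat libraries it was 0, 2 and 0 of 4. The deviations thus do not show that a number follows 1 pool, and the counts of pools rest on the labels. Alternatives were DESeq2 1.42.0, total-count scaling, the likelihood ratio test, no filter, only the libraries of a time, a replicate block, counts summed per gene, each library left out in turn, and leaving out the 4 libraries with over 1% of counts in 1 transcript, TraesCS1A01G000100.1. Those 4 were heat 1 DAT replicate 3, control 4 DAT replicate 2 and heat 4 DAT replicates 2 and 4.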

Additional observations from a re-analysis of the deposited data

Results flagged for a closer look

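For the 2B superoxide dismutase TraesCS2B01G417000.1, the heat effect at 4 DAT minus that at 0 DAT was -1.18 ± 0.35 (log2), and for the 3A glutaredoxin TraesCS3A01G158800.1 it was 0.74 ± 0.2. Both were flagged because they lay on the called side of edgeR's test of this difference, as did 10.2% of all tested transcripts. The members were chosen with the 0 DAT response known, so neither value is evidence of its own. With the pool of plants as a replicate block the values were -1.2 and 0.73, and with total-count scaling -1.83 and 0.18. The 0.18 was not called, so for the 3A glutaredoxin a difference between these times depends on the scaling. In the 30 groups of 4 libraries of the members, 0 held a library far from the others by Dixon's test, where chance gives about 1 in 20.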

How the results depend on the processing

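The number of transcripts called at 0 DAT stayed within 1.5 times the main 13231 under all 16 alternatives (10646 to 16510). At 1 DAT (7358) it was 3514 with only the 8 libraries of the time and 4342 with total-count scaling, and 5385 to 7177 when 1 library was left out. At 4 DAT (98) it was 205 per gene, 648 with DESeq2, 482 with the likelihood ratio test, 45 without a filter, 1 with only the 8 libraries of the time, 44 with the replicate block, 60 with total-count scaling, 3 without the 4 libraries rich in TraesCS1A01G000100.1, and 12 to 62 when 1 library was left out. The share of calls that were higher went with total-count scaling from 45.2% to 83.1% at 0 DAT, from 54.2% to 72.3% at 1 DAT and from 38.8% to 15% at 4 DAT.

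Over the 16 alternatives the 2B superoxide dismutase at 0 DAT ranged from 0.92 to 1.55 and the 6B peroxidase from -2.52 to -1.83 at 0 DAT and -2.8 to -1.81 at 1 DAT, all on the called side, which for members chosen on these contrasts is a description. No member was called at 4 DAT under any. The 3A glutaredoxin lost its calls as given above, and at 1 DAT also with only the 8 libraries of the time (-0.61). The 2B superoxide dismutase at 1 DAT became called under 6 of 16 alternatives, among them the replicate block (0.74). The 5B glutaredoxin at 0 DAT (-0.04) turned to 0.1 with the replicate block, 0.54 with total-count scaling, and ranged from -0.37 to 0.32 when 1 library was left out; the cause was not tested. Replicate numbers pair no plants across treatments, though at 1 and 4 DAT each library correlated best with its own number (4 of 4), and at 0 DAT 1 of 4 did. With Spearman's rho the SHR5-receptor-like kinase was less like the 5B glutaredoxin (0.26). Low counts limit the 5B glutaredoxin and the peroxidase.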
